A study of Glycine soja and Glycine max with 13 samples.

Results

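GmSSS1 (Glyma.19G196000), a homologue of SPINDLY, and GmGA20OX (Glyma.07G081700), a gibberellin 20-oxidase gene linked to seed weight, are 2 of the 43517 features counted in developing soybean seeds. They were taken by their identifiers and not by a measured threshold, although earlier results of these data were known when they were chosen. The count table does not pair identifiers with names, so both names are those under which the genes were chosen and could not be checked here. Seeds were collected 13 days after flowering from field-grown plants of 13 lines, and RNA was sequenced from stranded mRNA libraries. The cultivated lines, of Glycine max, were the 6 named df3, df12, df14, df17, df36 and df43, and the wild lines, of its progenitor Glycine soja, were the 7 named ys1, ys16, ys17, ys23, ys26, ys29 and ys34. No group carried a transgene or a treatment as far as the labels say. Each line gave 1 library, so errors within a group are differences among its lines. The number of seeds or plants pooled per library is not stated, and no batch is named.

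Gibberellins are growth hormones that promote cell elongation, germination and, in pea, the growth of the young seed. A gibberellin 20-oxidase carries out late oxidation steps that yield the direct precursors of the bioactive gibberellins, and is often a regulated step of the synthesis. SPINDLY acts on the signalling side: in Arabidopsis it is a nucleocytoplasmic enzyme that attaches O-fucose to DELLA proteins, the repressors of the gibberellin response, and loss of SPINDLY makes a plant behave as if gibberellin were abundant. The pair thus covers one step that makes the hormone and one that restrains the response to it. The progress of seed filling was read from Glyma.03G163500, a glycinin gene. Glycinin is a main reserve protein of the soybean seed, and its transcript accumulates as the embryo fills.

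Library totals ran from 12.7 M to 26.0 M counts (M, mega). Levels are given as CPM, counts scaled to 1 M per library and then by TMM factors, which correct for differences in library composition. On this scale the limit set by a count of 0, which is 3 counts, lay between 0.111 and 0.242 CPM. The 8 most abundant features took 15.9% to 32.2% of the counts in cultivated lines and 18.99% to 38.8% in wild lines, with the highest shares in ys34 (38.8%), df3 (32.2%) and ys29 (30.7%). The glycinin gene differed greatly between lines of one group. In cultivated lines it stood at 13959.9 CPM in df12, 1009 in df17, 521 in df43, 147 in df3, 13.3 in df36 and 0.929 in df14. In wild lines it stood at 11299.5 CPM in ys1, 6466 in ys23, 5645 in ys26, 1399 in ys17, 8.07 in ys34, 6.82 in ys29 and 5.25 in ys16. The seeds of df14 thus held almost none of this seed transcript, 18 counts, although they were of the same labelled age as the rest. The groups overlapped fully in it (log2 fold change cultivated over wild -0.44, SE 1.74, edgeR quasi-likelihood test, adjusted p = 0.914).

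GmSSS1, on the signalling side, varied little within a group, over a 1.44-fold range among cultivated lines and a 1.17-fold range among wild lines. It was lower in each cultivated line than in each wild line. Cultivated lines held 13.8 CPM in df43, 13.3 in df17, 12.0 in df3, 11.8 in df14, 10.6 in df12 and 9.56 in df36, from 149 to 277 counts each. Wild lines held 19.8 CPM in ys1, 19.7 in ys23, 19.6 in ys16, 18.8 in ys34, 18.5 in ys29, 17.1 in ys17 and 16.9 in ys26, from 258 to 529 counts each. Cultivated seeds averaged 11.8 ± 1.59 CPM (SD, n = 6), against 18.6 ± 1.22 CPM for the wild ones (SD, n = 7). The groups did not overlap, as the highest cultivated line lay 1.23-fold under the lowest wild line. Non-overlap with the lower values in cultivated lines was found for 0.573% of the 31420 tested genes. In whole seeds, fewer cells that hold a transcript and less of it per cell cannot be told apart.

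The fitted difference of GmSSS1 was a log2 fold change of -0.65 (SE 0.120), or 0.636-fold with a 95% interval of 0.532 to 0.759. Across all tested genes it missed the threshold of 0.05 (edgeR quasi-likelihood test with Benjamini-Hochberg adjustment, adjusted p = 0.0584, unadjusted p = 6.87e-05). By the size of its p it ranked 37th of 31420, where 14 genes, or 0.0446%, were called. DESeq2 called it with the same direction and nearly the same size (log2 fold change -0.64, adjusted p = 0.000118), and so did the edgeR fit with 1 surrogate variable (-0.65, adjusted p = 0.0355). These fits called more genes in all, 1279 by DESeq2 and 123 with the surrogate variable, which had an r of -0.925 with the glycinin gene over the 13 lines. The other alternatives gave an adjusted p between 0.0537 and 0.189, and leaving out 1 line at a time one between 0.0683 and 0.131.

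Lines next to each other in GmSSS1 level could not be ordered within counting error. All 12 neighbouring pairs of lines in the order of levels had overlapping 95% Poisson intervals, which cover counting error only. This included the step between the groups, where df43 had 12.0 to 15.7 CPM and ys26 had 14.97 to 19.04 CPM. Among cultivated lines df36, at 8.34 to 10.9 CPM, lay clear of df43. The lowest and highest wild lines, ys26 and ys1 (17.9 to 22.0 CPM), overlapped. The coefficient of variation was 13.5% among cultivated lines and 6.54% among wild lines, where counting error alone gives 7.12% and 5.63%. Within groups the SD of log2 CPM was 0.150, and only 0.952% of the tested genes had a smaller one, against a median of 0.435 over all tested genes.

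GmGA20OX, on the synthesis side, varied widely within both groups, and the groups overlapped. Cultivated lines held 124 CPM in df12, 65.4 in df17, 25.03 in df43, 20.7 in df3, 18.9 in df36 and 17.6 in df14. Wild lines held 78.8 CPM in ys23, 56.7 in ys1, 34.9 in ys26, 25.5 in ys17, 12.2 in ys16, 3.95 in ys29 and 1.02 in ys34. The cultivated lines thus spanned a 7.05-fold range and the wild lines a 77.5-fold range, with the lowest value, in ys34, resting on 15 counts. The 3 lowest levels of the series were all in wild lines and the highest was in cultivated df12. In the order of levels 4 of the 12 neighbouring pairs of lines overlapped in their counting intervals, all of them between df14 and ys17, the stretch from 17.6 to 25.5 CPM. The SD of log2 CPM within groups was 1.80, and 98.7% of the tested genes had a smaller one.

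**Figure D1:**
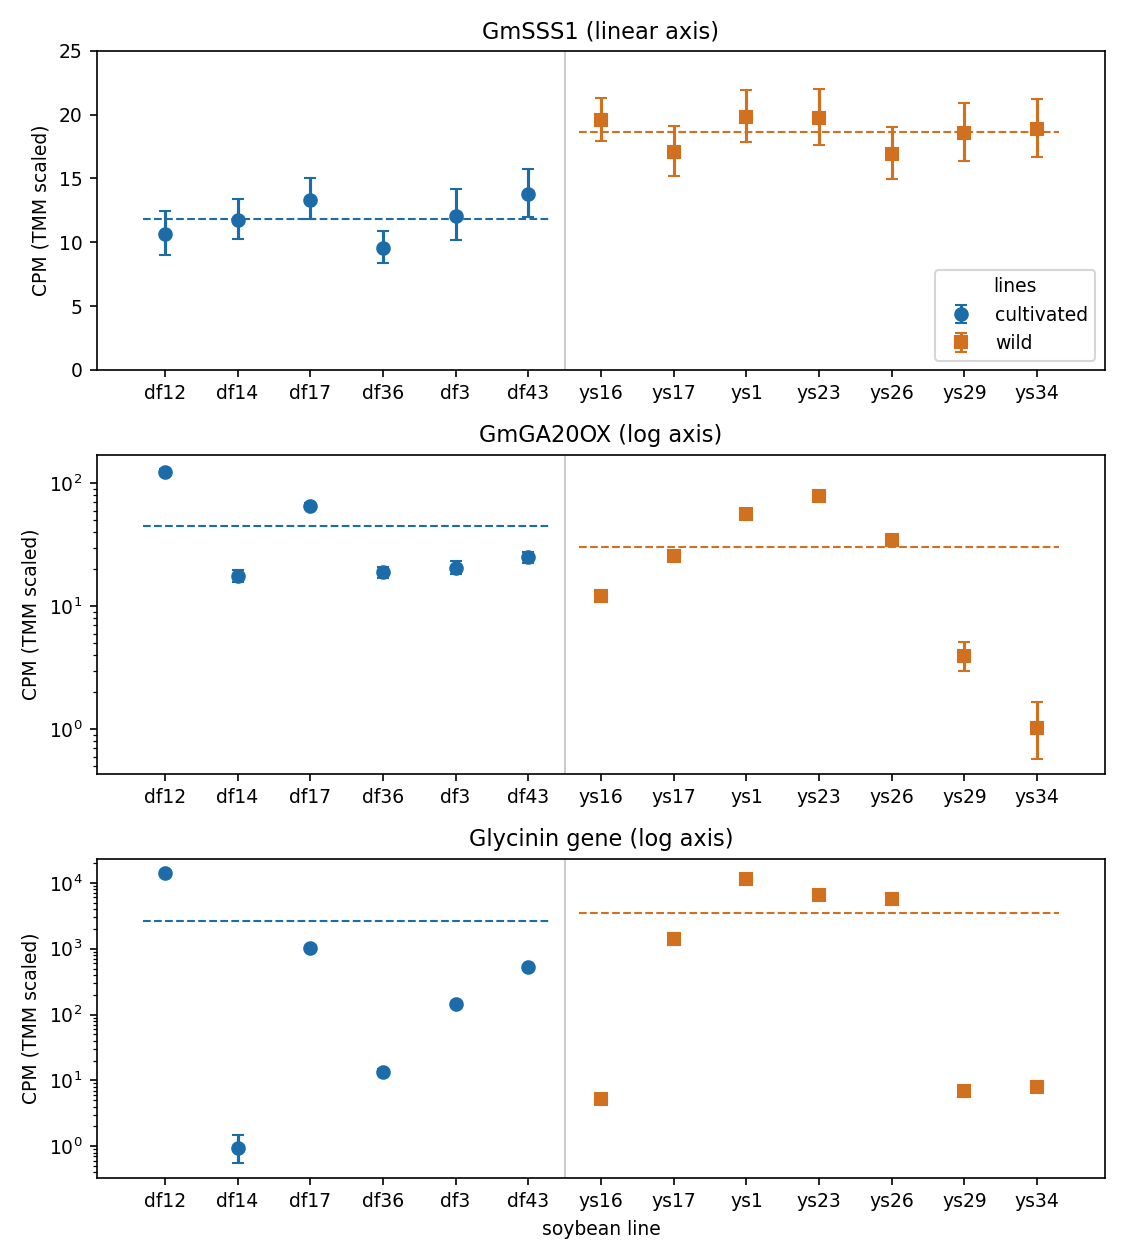
Level of GmSSS1 (linear axis), GmGA20OX (log axis) and the glycinin gene Glyma.03G163500 (log axis) in CPM, per soybean line, with cultivated lines as circles on the left and wild lines as squares on the right. Bars are 95% Poisson intervals of the counts, some of them smaller than the symbols, and dashed lines are group means. The 6 cultivated lines lie between 9.56 and 13.8 CPM of GmSSS1 and the 7 wild lines between 16.9 and 19.8 CPM, while GmGA20OX and the glycinin gene overlap between the groups.

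Without regard to filling, GmGA20OX averaged 45.3 ± 42.7 CPM over the cultivated lines (SD, n = 6), against 30.4 ± 28.8 CPM over the wild ones (SD, n = 7). The log2 fold change was 0.57 (SE 0.746), or 1.49-fold with a 95% interval of 0.495 to 4.48, so differences in either direction lay within it (edgeR adjusted p = 0.711, unadjusted p = 0.454). Of the tested genes 18.9% had an unadjusted p under 0.05. In this edgeR fit the difference rested on df12, and without this line the log2 fold change was -0.043 (edgeR adjusted p = 0.982). Without ys34 and without ys29 the edgeR value was 0.36 and 0.38, and without both it was 0.12, in a fit added once the data had been examined. With all lines, averaging log2 CPM set the groups farther apart, at 5.07 (SD 1.16) for cultivated against 3.96 (SD 2.20) for wild. Limma voom likewise gave a larger log2 fold change of 1.12, which was not called (limma voom adjusted p = 0.584). The log2 ratio of GmSSS1 to GmGA20OX per line was used to test whether their signed shifts differed, and not which shift was larger. Its mean was -1.50 ± 1.17 for the cultivated lines (SD, n = 6), against 0.26 ± 2.20 for the wild ones (SD, n = 7), a difference of -1.76 that did not exceed the spread among lines (exact permutation test over all assignments of lines to groups, two-sided p = 0.109).

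GmGA20OX followed the glycinin gene across lines. Within cultivated lines the order of the 6 lines was the same for both transcripts, df12, df17, df43, df3, df36 and df14 from high to low. Neighbours among df43, df3, df36 and df14 overlapped in their counting intervals of GmGA20OX, so this part of its order was not resolved. Within wild lines the 4 lines with at least 1399 CPM of the glycinin gene held 25.5 to 78.8 CPM of GmGA20OX, and the 3 lines with at most 8.07 CPM of it held 1.02 to 12.2 CPM. Inside those 3 wild lines the order was the opposite, as ys16 had the least glycinin transcript and the most GmGA20OX transcript. Counting intervals of the glycinin gene overlapped for ys16 and ys29 and for ys29 and ys34, but not for ys16 and ys34. In a model with the group as a term, GmGA20OX rose by a slope of 0.26 log2 units per log2 unit of the glycinin gene (SE 0.0483), which is 1.20-fold for each doubling of the glycinin transcript (95% interval 1.11 to 1.29, edgeR quasi-likelihood test, adjusted p = 0.00765 over 31419 genes). A positive slope was called for 3.09% of these genes. A slope of larger size was fitted for 0.885% of them in either direction, and 1.15% had a smaller p.

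The slope of GmGA20OX was called in each fit with 1 line removed, at 0.23 to 0.30 (adjusted p by edgeR between 0.00516 and 0.0429, the highest without df12). Without ys29 and ys34 together it was 0.21 (edgeR adjusted p = 0.0137). These are libraries with the lowest GmGA20OX levels and high shares of the 8 most abundant features, and with plain totals without those features in place of TMM scaling the slope was 0.25 (edgeR adjusted p = 0.0082). Among the 8 lines above 100 CPM of the glycinin gene, a subset taken once the data had been examined, it was 0.41 and not called (edgeR adjusted p = 0.159, where 25 genes were called).

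GmSSS1 showed no such slope. Its fitted value was 0.002 log2 units per log2 unit of the glycinin gene (SE 0.0133), with a 95% interval of -0.03 to 0.03, and it did not pass (edgeR adjusted p = 0.964). The sign of this value was kept in 6 of 9 alternatives and in 12 of 13 fits with a line left out. A doubling of the glycinin transcript went with 0.982-fold to 1.02-fold GmSSS1 at the bounds of the interval.

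**Figure D2:**
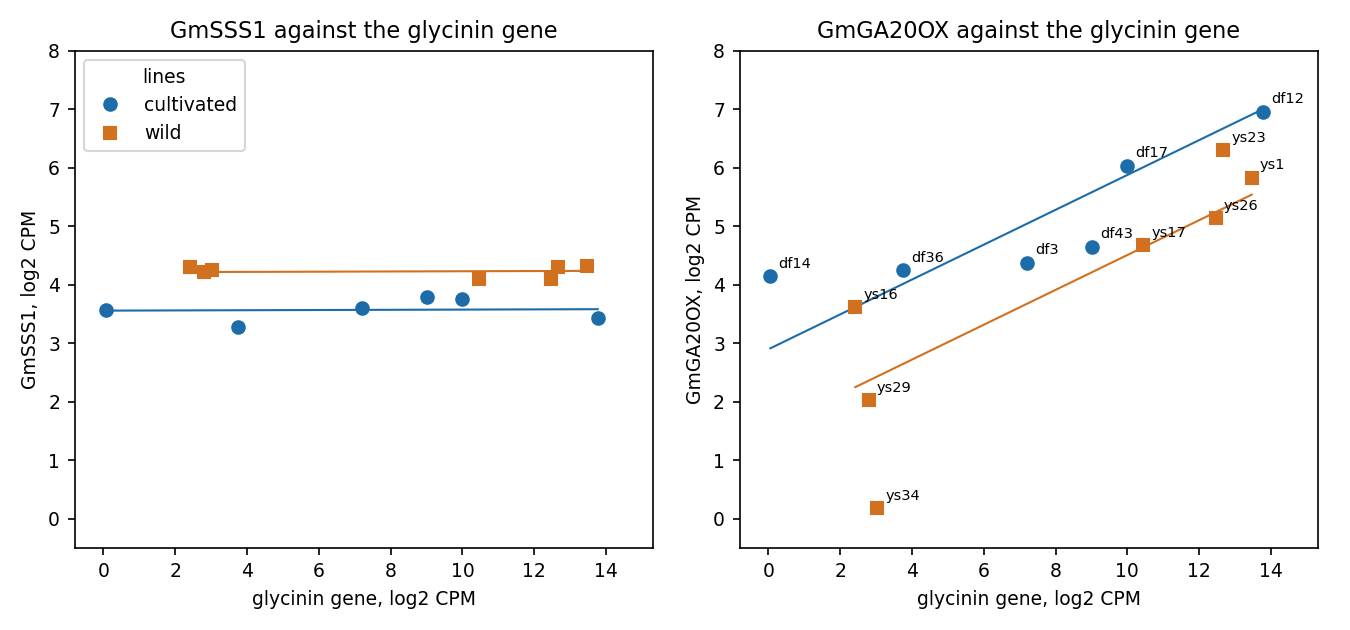
Log2 CPM of GmSSS1 (left) and of GmGA20OX (right) against log2 CPM of the glycinin gene, with cultivated lines as circles, wild lines as squares and the names of lines in the right panel. Lines are least-squares fits with 1 slope and a step between the groups. GmSSS1 forms 2 flat bands, and GmGA20OX climbs in both groups, with ys34 lying 2.25 log2 units under its line.

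Across all 13 lines log2 CPM of GmGA20OX and of the glycinin gene had a Pearson r of 0.754 (permutation p = 0.00186, adjusted p = 0.00833 over 6 relations) and a Spearman rho of 0.901 (permutation p = 8e-05, adjusted p = 0.00048). Without df14 and ys16, the lines farthest from the median of the glycinin gene, r was 0.860. Over the tested genes 2.48% had a higher r with the glycinin gene. Within the 6 cultivated lines r was 0.849 and rho was 1.0 (exact permutation p = 0.00278 for each, the smallest that 6 lines allow, adjusted p = 0.00833), and r was 0.744 without df12 and df14. This rho takes the order of df43, df3, df36 and df14 as known, although neighbours among them overlapped in counting intervals of GmGA20OX. Within the 8 lines above 100 CPM of the glycinin gene r was 0.762 (exact permutation p = 0.0298, adjusted p = 0.0596) and rho 0.810 (exact permutation p = 0.0218, adjusted p = 0.0436), and r was 0.523 without df3 and df43. The wild lines fell into separate clusters of 3 and 4 lines by the glycinin gene, with a gap of 67.2% of their range, so no correlation with it was computed within them.

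In a fit over all lines with a slope for each group, the slope of GmGA20OX was 0.21 in cultivated and 0.31 in wild lines. The wild slope was fitted across the separate clusters of wild lines given above. The difference of -0.10 (95% interval -0.29 to 0.09) did not pass (edgeR adjusted p = 0.996, unadjusted p = 0.272), in a test that called 0 of 31419 genes (0%) by edgeR and put 1040 of them at an unadjusted p under 0.05. The slope of GmSSS1 was 0.009 in cultivated and -0.003 in wild lines, a difference of 0.01 (95% interval -0.05 to 0.07, edgeR adjusted p = 0.996).

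With the glycinin gene in the model, the groups were compared at equal filling. GmSSS1 was lower in cultivated seeds by nearly the same amount as before (log2 fold change -0.65, SE 0.125), and it now passed (edgeR adjusted p = 0.0454), among 0.293% of 31419 genes that did. The call was lost with any 1 line removed (adjusted p by edgeR between 0.0531 and 0.108), while the log2 fold change stayed between -0.70 and -0.60. It was also lost without ys29 and ys34 together (-0.64, edgeR adjusted p = 0.262) and among the 8 lines above 100 CPM of the glycinin gene (-0.60, edgeR adjusted p = 0.774, where 1 gene was called).

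GmGA20OX at equal filling had a log2 fold change of 1.10, cultivated over wild (SE 0.455), or 2.14-fold with a 95% interval of 1.09 to 4.21, and did not pass across all genes (edgeR adjusted p = 0.198, unadjusted p = 0.0294). Of the genes 11.1% were higher in cultivated seeds with an unadjusted p under 0.05. Lines near each other in glycinin level differed in how far they showed this offset. Cultivated df12 held 124 CPM of GmGA20OX and wild ys1 held 56.7 CPM, and cultivated df17 held 65.4 CPM against 25.5 CPM in wild ys17. Cultivated df43, with less glycinin transcript than ys17, held 25.03 CPM, about the level of ys17. Cultivated df36 held 18.9 CPM, against 12.2 CPM in ys16, 3.95 CPM in ys29 and 1.02 CPM in ys34. The size of this offset depended on the lines and on the measure of filling. It was 0.62 without ys29 and ys34 together (edgeR adjusted p = 0.488). With the first principal component in place of the glycinin gene it was 0.39 (edgeR adjusted p = 0.388). That component was taken over all tested genes but the glycinin gene, GmGA20OX among them. Around the least-squares fit with a step between groups, ys34 lay 2.25 log2 units below its line, and ys16, df14 and ys23 lay 1.37, 1.24 and 1.003 above theirs. Cultivated df43 and df3 had residuals of -0.93 and -0.66.

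No relation between the members across lines passed its test in either group. Because GmSSS1 did not overlap between the groups, no correlation over all lines was computed. Within cultivated lines r was 0.0225 (exact permutation p = 1.0) and rho 0.257 (exact permutation p = 0.658), and within wild lines r was 0.0263 (exact permutation p = 0.936) and rho 0.357 (exact permutation p = 0.444), with adjusted p-values of 1.0 for r and 0.658 for rho over 6 relations. These r values were unstable, at -0.271 without df36 and df43 and 0.857 without ys17 and ys26. GmSSS1 and the glycinin gene had an r of 0.205 within cultivated lines (exact permutation p = 0.703, adjusted p = 1.0), and 0.974 when df12 and df14 were left out and 4 lines remained. These p-values do not show that the members are unrelated.

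**Figure D3:**
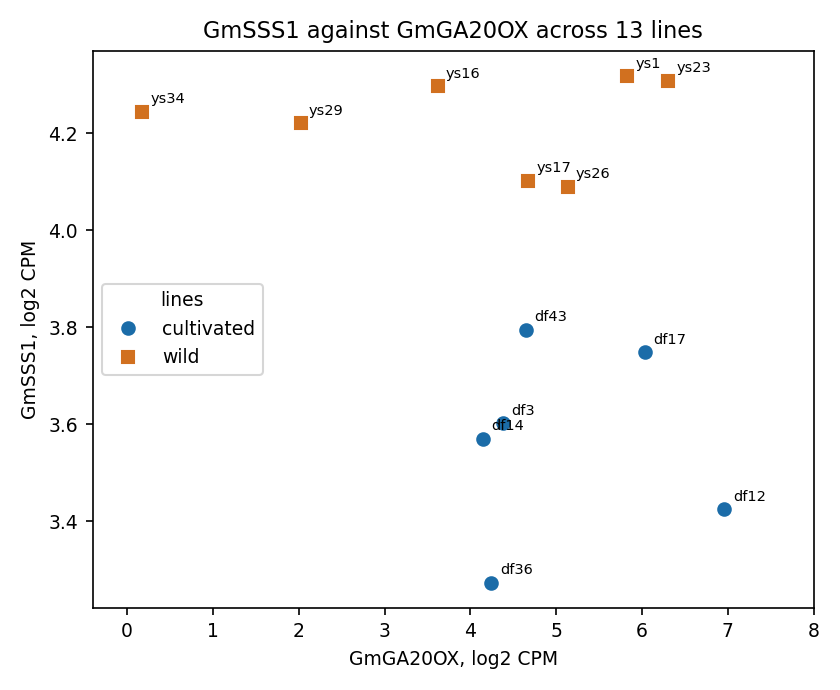
Log2 CPM of GmSSS1 against log2 CPM of GmGA20OX in the 13 named lines, with cultivated lines as circles and wild lines as squares. The groups separate along the vertical axis and overlap along the horizontal one, with an r of 0.0225 within cultivated and 0.0263 within wild lines.

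Against all tested genes the members took different places in the group difference and in the slope. The median log2 fold change of all tested genes was -0.02, and 14.4% of the genes had a larger absolute log2 fold change than GmSSS1 and 18.99% a larger one than GmGA20OX. For the slope, 95.1% of the genes had a larger absolute value than GmSSS1 and 0.885% a larger one than GmGA20OX.

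**Figure D4:**
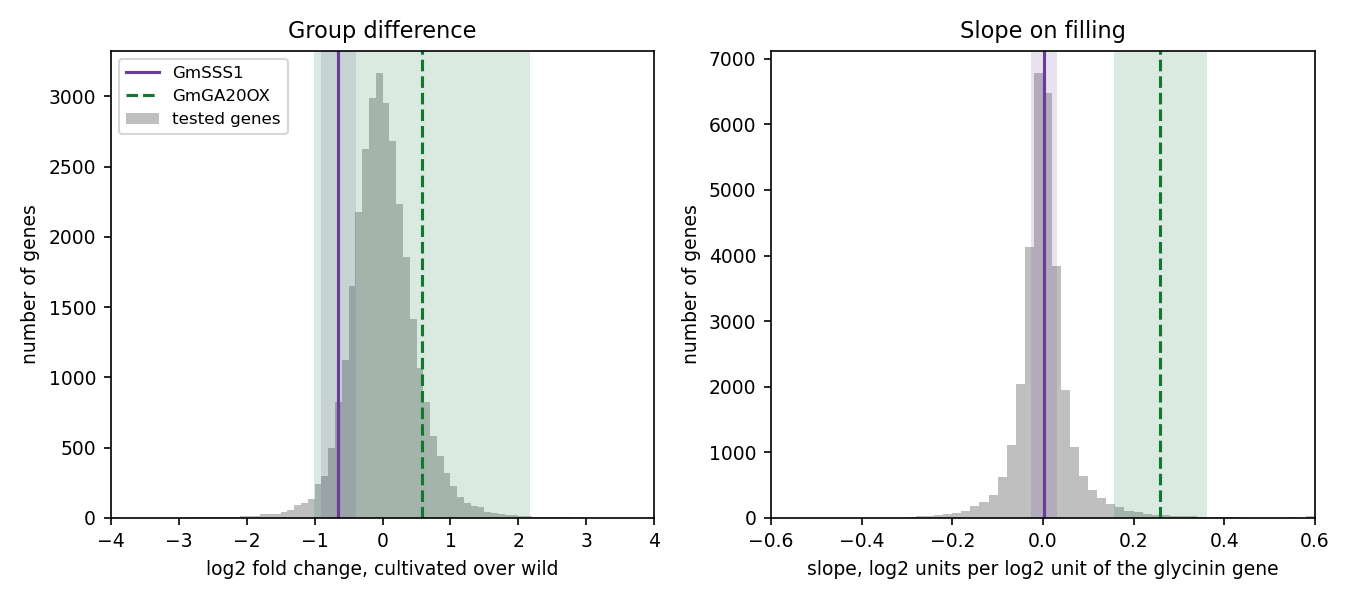
Number of tested genes by log2 fold change, cultivated over wild (left, 31420 genes), and by slope on the glycinin gene (right, 31419 genes), with values beyond an axis counted in its end bin. Vertical lines mark GmSSS1 (solid) and GmGA20OX (dashed), and bands are their 95% intervals. GmSSS1 has a narrow band away from 0 on the left and at 0 on the right, and GmGA20OX has a band across 0 on the left and one well above 0, from 0.16 to 0.36, on the right.

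The genes most like each member were sought among 22055 genes with a mean of at least 5 CPM, by Pearson r of log2 CPM over the 13 lines, as a description. As GmSSS1 did not overlap between the groups, its r values here include the step between them. They do not show likeness among lines of a group. Glyma.07G234900 was most like GmSSS1 (r = 0.919), with 4.47 ± 0.565 CPM over the cultivated lines (SD, n = 6), against 10.8 ± 1.48 CPM over the wild ones (SD, n = 7). Glyma.02G270400 ran most opposite to GmSSS1 (r = -0.935), with 18.1 ± 5.71 CPM over the cultivated lines, against 4.41 ± 0.807 CPM over the wild ones. Glyma.13G365800 was most like GmGA20OX (r = 0.985), with its lowest level, 0.203 CPM, in ys34, where it had 3 counts and stood at the limit set by a count of 0, and its highest, 40.2 CPM, in df12, the lines where GmGA20OX was lowest and highest. Glyma.07G059800 ran most opposite to GmGA20OX (r = -0.956), with 24.1 CPM in ys34 and 8.02 CPM in ys23. The files do not pair these identifiers with names. The other genes of gibberellin synthesis and response were not analysed here, because 0 of the 59365 rows of the gene table at hand held an identifier of these counts.

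**Figure D5:**
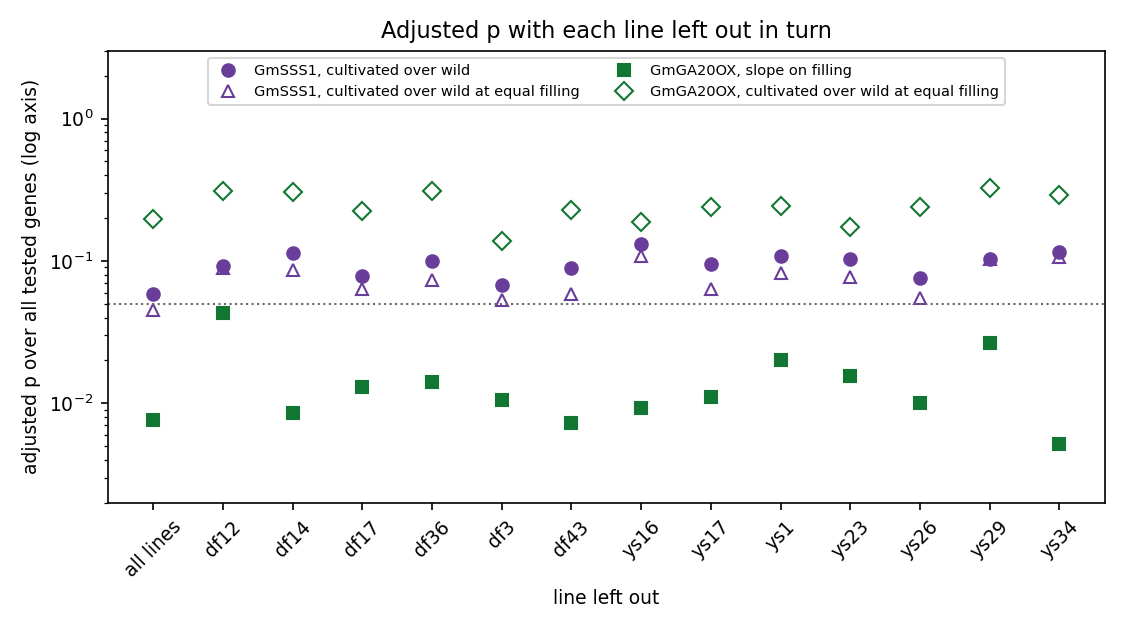
Adjusted p over all tested genes (edgeR, log axis) with all lines and with each line left out in turn. Filled circles are GmSSS1 cultivated over wild, open triangles the same at equal filling, filled squares the slope of GmGA20OX on the glycinin gene and open diamonds GmGA20OX cultivated over wild at equal filling. The dotted line is 0.05. The squares stay under it at up to 0.0429, the triangles are under it with all lines only, and the circles and diamonds lie above it throughout.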

How the data were processed

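RNA sequencing counts of 13 field-grown lines were used. The authors deposited whole-number read counts per gene, raw as far as their values show. Trim Galore 0.3.3, TopHat2, SAMtools and edgeR are listed without roles, per the submitters' processing notes. For the counter, build, annotation and treatment of strand and multiply mapped reads, nothing is stated. Levels of overlapping genes and of near-identical copies are therefore uncertain. Each column was matched to a line by its title.

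The 31420 genes kept by edgeR's expression filter were tested with quasi-likelihood F-tests (edgeR 4.0.16, R 4.3.3) on TMM-scaled counts, with group as the only term, with the log2 CPM (prior count 2) of the glycinin gene added, or with their interaction. P-values were adjusted by Benjamini-Hochberg over all genes, and the glycinin gene was left out where it was a term. The fits were also run on simulated data with known group differences and known slopes on the glycinin gene. The simulated group differences were larger than that of GmSSS1 and do not bear on its call. Recovery in these runs is not given here. Intervals use the standard error from the F statistic. P-values of the fits weigh an effect against the spread between lines, with information on that spread shared across genes. No pair of libraries agreed within sampling noise (lowest chi-square per degree of freedom of any pair 21.8).

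Correlations across lines used 100000 permutations, or all permutations for fewer than 10 lines (scipy 1.17.1 and numpy 2.4.6 in Python 3.11.15). Lines counted as clusters where the largest gap exceeded 50% of the range and counting intervals did not overlap across it. Alternatives changed scaling, filter, test, measure of filling, prior count and lines, and used DESeq2 1.42.0, limma 3.58.1 and sva 3.50.0. Read pairs carry no molecular identifiers, so Poisson intervals and floors cover counting error only. Named genes were the members, the glycinin gene, and for each member the genes of highest and lowest r. The members, tests and the storage protein identifiers were chosen with earlier results of these data known.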

Additional observations from a re-analysis of the deposited data

Results flagged for a closer look

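In 2 of 16 groups of lines (12.5%) the farthest line lay beyond Dixon's 95% limit, where chance gives about 5%. Each of GmSSS1, GmGA20OX and the glycinin gene was examined in CPM and log2 CPM, with the library totals and the share of the 8 most abundant features. The glycinin gene stood at 13959.9 CPM in df12, against 1009 CPM in df17, the next cultivated line. On the log2 scale used in all fits df12 was not beyond the limit. The total of ys16, at 23.6 M counts (M, mega), was the highest of the wild lines, and the next was 18.1 M. Neither GmSSS1 nor GmGA20OX had a line beyond the limit on either scale.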

How the results depend on the processing

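No paired analysis was possible because the numbers of the lines name lines and pair no samples. For GmSSS1 cultivated over wild, the log2 fold change was negative under all 9 alternatives and in all 13 fits with a line left out (-0.70 to -0.60), and the call was gained with DESeq2 (-0.64, adjusted p = 0.000118) and 1 surrogate variable (-0.65, adjusted p = 0.0355). At equal filling its call was lost with plain totals without the 8 most abundant features in place of TMM scaling (-0.73, adjusted p = 0.0788), without ys29 and ys34 together (-0.64), among the 8 lines with high glycinin levels (-0.60) and with any line left out (-0.70 to -0.60). Its slope on filling, never called, turned sign with those plain totals (-0.0062), with limma voom (-0.00092), among the 8 lines (-0.022) and without df36 (-0.0024), with 0.0072 as the highest value on leaving out a line.

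GmGA20OX cultivated over wild was not called under any alternative. Its log2 fold change ran from -0.043 without df12 to 1.02 without ys23 with a line left out, and was 1.12 with limma voom. At equal filling it ran from 0.85 to 1.47 with a line left out and was not called. Its slope lost its call among the 8 lines only (0.41), with 0.23 to 0.30 with a line left out. With another measure of filling, scaled to the same SD, its slope was 0.33 with the first principal component (r of 0.877 with the glycinin gene) and 0.29 with 4 storage protein genes. GmGA20OX was itself among the genes of that component, so the slope of 0.33 is not independent support.

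Within cultivated lines the r of GmSSS1 and GmGA20OX was -0.012 with RLE factors and -0.37 to 0.56 with a line left out (-0.20 without df17, -0.37 without df36). Within wild lines it was -0.19 to 0.23 with a line left out (-0.19 without ys23, -0.16 without ys1) and 0.39 with unscaled totals. The r of GmSSS1 and the glycinin gene ran from -0.095 without df36 to 0.63. The r of GmGA20OX and the glycinin gene was 0.72 to 0.91 in cultivated lines with a line left out, where 5 lines allow few permutations, 0.67 to 0.85 in the 8 lines and 0.71 to 0.83 in all lines. In cultivated lines its call was kept in 1 of 6 runs with a line left out (exact permutation test, adjusted p between 0.0333 and 0.05). The log2 ratio of the members differed by -2.14 to -1.13.

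The 14 genes called cultivated over wild became 23 with upper-quartile factors, 25 without a filter, 123 with 1 surrogate variable, 1279 with DESeq2 and 9 to 32 with a line left out. The 92 called at equal filling became 34 with those plain totals, 1775 with DESeq2, 330 with limma voom, 22 without ys29 and ys34, 1 in the 8 lines and 10 to 119 with a line left out. The 1436 called for the slope became 2748 with DESeq2, 4214 with limma voom, 2395 with the first principal component, 329 without ys29 and ys34, 25 in the 8 lines and 550 to 1787 with a line left out. The cause of these moves was not tested, other than that the 8 lines are fewer samples. Choices added after seeing the data were the 8 lines, ys29 and ys34 together and, for fits with filling, DESeq2, limma voom and those plain totals.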
